A study of Mus musculus and Homo sapiens with 15 samples.

Results

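The neuregulin genes Nrg1, Nrg2 and Nrg3 and their receptor gene Erbb4 were examined for C-to-U edits in mouse brain sections. Edit clusters whose annotation gives 1 of these 4 genes were taken. Edited sites were taken over the whole span of each gene on its strand, and nearly all lay inside these clusters (1784 of 1803 filtered sites in RBFOX2-INSCRIBE replicate 1). Clusters of the 4 genes numbered 1347 to 1614 of 191648 to 229430 per RBFOX2-INSCRIBE library, 1085 to 1235 of 180088 to 194013 per enzyme-only library and 969 to 1325 of 139884 to 188391 per buffer-only library. That is 0.697% to 0.703%, 0.596% to 0.666% and 0.688% to 0.711% of all clusters of a library in these 3 groups. The clusters were chosen by the measured edits themselves, since a cluster is listed only where edited reads were called, and the genes were put together with earlier results of these libraries known. Cluster counts are therefore a description, and no value over the 4 genes is independent support for a response of the family.

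In INSCRIBE, the cytidine deaminase APOBEC1 is fused to a nanobody, which an antibody holds near the RNAs of its target protein in fixed tissue, and each deaminated cytidine is read as a T. The RBFOX2-INSCRIBE libraries had antibody to the splicing regulator RBFOX2 and the fusion enzyme, the enzyme-only libraries had the enzyme without antibody, and the buffer-only libraries had neither. Each group holds 3 libraries, each from 1 coronal slice of 20 µm of paraformaldehyde-fixed brain of 2-month-old female wildtype C57BL/6J mice. The 9 slices came from at most 2 mice and are not tied to a mouse, so p-values measure the spread between slices, which may be technical. The slices hold all cell types of the section, so fewer cells of a type and less RNA per cell cannot be told apart.

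Sites passing the score and fraction filter numbered 243545 to 281314 per RBFOX2-INSCRIBE library, 221730 to 239874 per enzyme-only library and 159087 to 217309 per buffer-only library, with a median of 16 to 17 covering reads. The buffer-only libraries saw no enzyme, so their sites give the background of the site calls. In the tissue check, 6 of 7 neuron markers were tested and Tubb3 had no edited read in any library. Summed edited reads of the neuron markers were 5076 to 5650 CPM (edited reads per 1000000 of a library's TMM-scaled total over the tested genes) in RBFOX2-INSCRIBE, 4315 to 4866 CPM in enzyme-only and 4427 to 4992 CPM in buffer-only libraries. Those of 6 astrocyte markers out of 6 listed were 1867 to 2466, 1892 to 2145 and 1501 to 1639 CPM in the same order of groups. Summed edited reads of 6 striatal markers out of 11 listed were 2009 to 3168 CPM in RBFOX2-INSCRIBE, 1344 to 1602 CPM in enzyme-only and 1327 to 1596 CPM in buffer-only libraries. For 7 of 14 inhibitory neuron markers the sums were 681 to 799, 789 to 818 and 724 to 935 CPM in the same order of groups, and for 3 of 6 oligodendrocyte markers 386 to 493, 575 to 589 and 459.6 to 579 CPM. These sums count edited reads, so the amount of marker RNA and its editing cannot be told apart in them. The part of section level or cell makeup in the results below was not tested.

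All 4 genes lie on the minus strand of GRCm38 (mm10), and 3 of them are among the long genes of the brain. Nrg1 spans chr8:31814551-32884029 (1069.5 kb, 0.968% of it exonic) and Nrg2 spans chr18:36017652-36197380 (179.7 kb, 1.75% exonic). Nrg3 spans chr14:38368952-39473088 (1104.1 kb, 0.617% exonic) and Erbb4 spans chr1:68032186-69108059 (1075.9 kb, 1.15% exonic). UGCAUG, the known binding sequence of RBFOX proteins, occurs 433 times on the transcribed strand of Nrg1, 67 times in Nrg2, 453 times in Nrg3 and 375 times in Erbb4. Per kb these are 0.405, 0.373, 0.410 and 0.349 copies.

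Neuregulins are ligands with an EGF-like domain, made mostly as membrane-bound precursors that proteases release, and they bind and activate receptor tyrosine kinases of the ErbB family. ErbB4 binds neuregulins directly. In the forebrain it is known mainly from inhibitory interneurons, where neuregulin signalling takes part in interneuron migration and in the building of synapses. RBFOX proteins bind UGCAUG in introns and 3′ UTRs and control splicing and RNA stability, and the transcripts of neuregulins and Erbb4 are known to be alternatively spliced.

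The confident list of RBFOX2-INSCRIBE, in which the authors kept clusters that overlap between the 3 replicates, held 4 clusters of these genes with UGCAUG. All 4 lie in introns of Nrg3, and their genomic sequences (GRCm38, 5′ to 3′ on the transcribed strand, UGCAUG in capitals as TGCATG) are shown because they carry both the motif and the edits. They span chr14:38940583-38940627, chr14:39335166-39335210, chr14:39359706-39359825 and chr14:39384336-39384395.
Nrg3 38940583: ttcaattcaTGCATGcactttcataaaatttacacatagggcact
Nrg3 39335166: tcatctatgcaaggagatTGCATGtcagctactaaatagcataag
Nrg3 39359706: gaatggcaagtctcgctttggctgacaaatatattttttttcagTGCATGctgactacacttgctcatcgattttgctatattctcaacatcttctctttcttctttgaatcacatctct
Nrg3 39384336: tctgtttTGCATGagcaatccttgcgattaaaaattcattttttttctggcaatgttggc
In the first, UGCAUG starts at base 10 and edits passed the filter at bases 8, 18, 22, 33 and 35 in 1 or more RBFOX2-INSCRIBE libraries. In the second, it starts at base 19, with edits at bases 2, 10 and 29. In the 120-nt cluster it starts at base 45, with edits at bases 26, 42, 55, 58, 60, 64, 97 and 117. In the last it starts at base 8, with edits at bases 20 and 37.

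The 120-nt cluster was the Nrg3 confident cluster with the most edited reads, with 2, 2 and 9 in the RBFOX2-INSCRIBE libraries, none in the enzyme-only libraries and 0, 0 and 1 in the buffer-only libraries. Replicate 3 of RBFOX2-INSCRIBE thus gave most of its reads. The cluster at 38940583 had 2, 1 and 2 edited reads in RBFOX2-INSCRIBE, none in enzyme-only and 1, 0 and 0 in buffer-only libraries. The cluster at 39335166 had 1, 1 and 1, none, and 1, 0 and 0 in these groups, and that at 39384336 had 1, 0 and 2 edited reads in RBFOX2-INSCRIBE and none in the other 6 libraries. Each cluster thus rests on a few reads, and the numbers are too small for a test by cluster. The list was made from clusters of the RBFOX2-INSCRIBE libraries, so more reads there than elsewhere were partly fixed by the choice.

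Edits around the UGCAUG of the 120-nt cluster reached beyond it. The window was placed there after values were seen, on a cluster taken from the RBFOX2-INSCRIBE list. More sites in the RBFOX2-INSCRIBE libraries were thus partly fixed by that choice, and the counts are a description. Within 250 nt of that motif, sites were listed 4, 6 and 8 times in the RBFOX2-INSCRIBE libraries, with 4, 8 and 10 edited reads. No site was listed in the 3 enzyme-only libraries, and the buffer-only libraries listed 0, 0 and 1 site with 1 edited read. The edited share at the RBFOX2-INSCRIBE sites was at most 5.56%, 18.2% and 15.4% in replicates 1, 2 and 3, at 18 to 20, 11 to 25 and 8 to 23 covering reads. The same cytidine was edited in 2 of the 3 RBFOX2-INSCRIBE libraries at chr14:39359643, chr14:39359709, chr14:39359729 and chr14:39359768. Site lists give no cover where nothing was edited, so the enzyme-only cover at this place is unknown. Over bin 2 of 10 equal bins of Nrg3 from the 5′ end, which holds this motif, filtered sites had on average 32.9 covering reads in RBFOX2-INSCRIBE, 29.5 in enzyme-only and 36.0 in buffer-only libraries. These means do not give the cover at this place, where the RBFOX2-INSCRIBE sites had fewer covering reads than the mean of the bin.

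**Figure D1:**
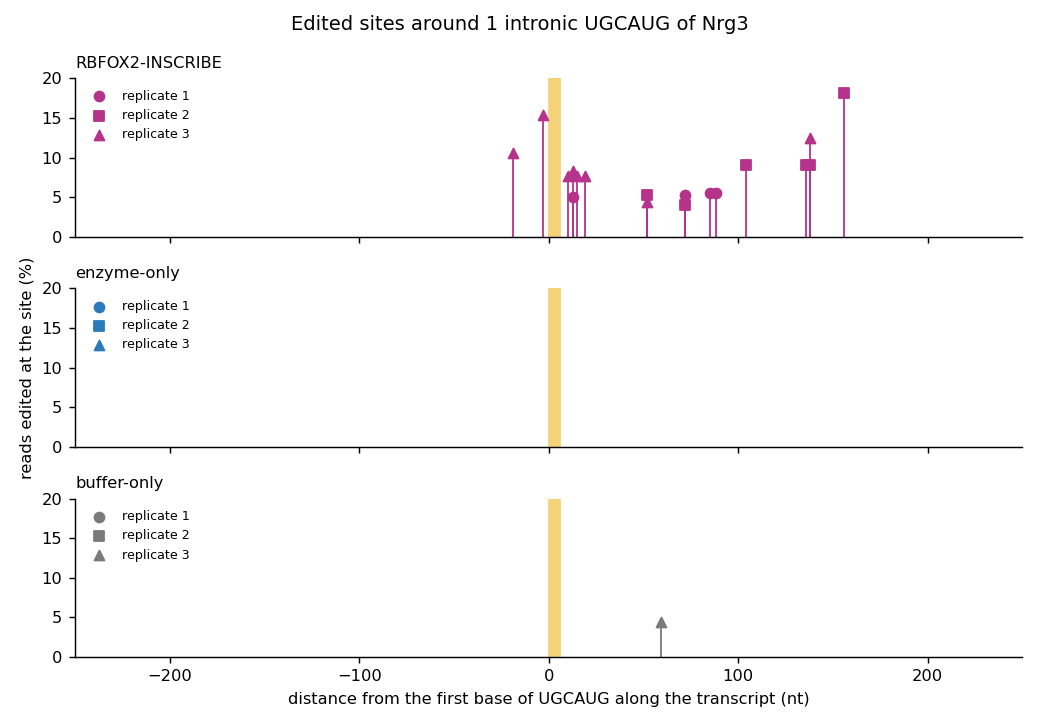
Edited sites within 250 nt of the UGCAUG in the 120-nt Nrg3 cluster, by distance along the transcript from its first base (x, nt) and the percent of covering reads edited (y). Each marker is a site in 1 library, with the replicate given by its shape, panels from top to bottom are RBFOX2-INSCRIBE, enzyme-only and buffer-only, and the yellow band is UGCAUG. The 3 RBFOX2-INSCRIBE libraries hold 18 site calls, the enzyme-only libraries none and the buffer-only libraries 1. The place was chosen from the RBFOX2-INSCRIBE list, so this difference was partly fixed by the choice.

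Away from the clusters, 2 further Nrg3 cytidines lay close to UGCAUG and were edited in 2 RBFOX2-INSCRIBE libraries and in no other library. Stretches of 41 nt around them, chr14:38905621-38905661 and chr14:39358831-39358871, are printed with the recurrent cytidine at base 21.
Nrg3 site 38905641: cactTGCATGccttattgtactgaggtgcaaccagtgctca
Nrg3 site 39358851: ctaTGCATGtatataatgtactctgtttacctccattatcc
At the first, 1 of 31 and 1 of 48 covering reads were edited in RBFOX2-INSCRIBE replicates 1 and 2. At the second, 1 of 48 and 3 of 40 reads were edited in replicates 1 and 3. Both lie downstream of their motif, by 11 and 12 nt from its nearest base.

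The 2 confident RBFOX2-INSCRIBE clusters of Erbb4 are intronic and hold no UGCAUG, within them or within 50 nt. Their sequences, chr1:68948673-68948762 and chr1:69057588-69057632, are shown because they are the receptor's only entries in that list.
Erbb4 68948673: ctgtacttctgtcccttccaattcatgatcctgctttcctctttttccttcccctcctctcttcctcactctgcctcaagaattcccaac
Erbb4 69057588: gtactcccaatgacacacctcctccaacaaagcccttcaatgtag
The first had 0, 0 and 2 edited reads in RBFOX2-INSCRIBE, none in enzyme-only and 1, 0 and 0 in buffer-only libraries. The second had 0, 1 and 1 edited reads in RBFOX2-INSCRIBE and none elsewhere.

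Editing levels of the ligand and receptor genes were compared next, with each gene's edited reads summed over its filtered sites. Among the 4 genes, Nrg2 alone passed the edgeR test for RBFOX2-INSCRIBE against enzyme-only, with a log2 difference of 1.04, and no gene passed in the other 2 comparisons. Of all 6357 genes tested, 0.928% were called in RBFOX2-INSCRIBE against enzyme-only, 0.661% in enzyme-only against buffer-only and 1.64% in RBFOX2-INSCRIBE against buffer-only. These comparisons share libraries, so their values are given side by side and are not independent.

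Nrg1, the best known of the ligands, had 633, 764 and 658 edited reads in the RBFOX2-INSCRIBE libraries, 425, 497 and 531 in enzyme-only and 542, 409 and 392 in buffer-only libraries. Scaled to CPM it averaged 2561 ± 300 in RBFOX2-INSCRIBE, 2025 ± 275 in enzyme-only and 2523 ± 39.8 in buffer-only libraries (SD, n = 3 each). The RBFOX2-INSCRIBE and enzyme-only libraries overlapped, since RBFOX2-INSCRIBE replicate 1 (2219 CPM) lay below enzyme-only replicate 3 (2311 CPM), while every enzyme-only library lay below every buffer-only library. The log2 difference of RBFOX2-INSCRIBE against enzyme-only was 0.34 ± 0.10 (SE, edgeR adjusted p = 0.0922), that of enzyme-only against buffer-only -0.32 ± 0.11 (adjusted p = 0.180) and that of RBFOX2-INSCRIBE against buffer-only 0.02 ± 0.10 (adjusted p = 0.964). The first of these passed the threshold with RBFOX2-INSCRIBE replicate 1 left out (adjusted p = 0.0204), without enzyme-only replicate 3 (adjusted p = 0.0310), with DESeq2 (adjusted p = 0.0380), with every listed site (log2 difference 0.38, adjusted p = 0.0102) and with sites of at least 20 covering reads (log2 difference 1.34, adjusted p = 0.00141). It did not pass without any other single library of the 2 groups (adjusted p 0.230 to 0.417). With the mean covering reads per filtered site as an offset its direction turned (log2 difference -0.05, adjusted p = 0.949). Those means were 18.1, 24.2 and 17.7 reads in the RBFOX2-INSCRIBE libraries, 14.3, 15.3 and 15.6 in enzyme-only and 20.3, 16.1 and 18.2 in buffer-only libraries, and their part in the difference was not tested further.

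Nrg2, a ligand with fewer known roles in the brain, had the lowest counts of the family. It had 57, 58 and 49 edited reads in the RBFOX2-INSCRIBE libraries, 17, 27 and 27 in enzyme-only and 42, 17 and 22 in buffer-only libraries. These are 204 ± 6.53 CPM in RBFOX2-INSCRIBE, 98.9 ± 25.0 CPM in enzyme-only and 148 ± 47.9 CPM in buffer-only libraries. All 3 RBFOX2-INSCRIBE libraries lay above all 6 others, though replicate 1 of buffer-only (199.0 CPM) nearly reached them. The log2 difference was 1.04 ± 0.24 against enzyme-only (edgeR adjusted p = 0.0118) and 0.43 ± 0.24 against buffer-only (adjusted p = 0.491), and enzyme-only against buffer-only gave -0.61 ± 0.27 (adjusted p = 0.382). Without replicate 1 of buffer-only the last 2 differences were 0.74 and -0.30, and without its replicate 2 they were 0.24 and -0.80, none of them past the test (adjusted p 0.234 to 0.844). The call against enzyme-only was lost without enzyme-only replicate 1 (log2 difference 0.85, adjusted p = 0.191). It was also lost with the mean covering reads per filtered site as an offset (log2 difference 0.73, adjusted p = 0.332), and DESeq2 gave no adjusted p for this gene. Its mean covering reads were 10.1, 11.7 and 10.9 per filtered site in RBFOX2-INSCRIBE, 8.25, 8.64 and 9.46 in enzyme-only and 11.4, 7.38 and 9.05 in buffer-only libraries.

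Nrg3, a ligand found mostly in the nervous system and known as a partner of ErbB4, was the most edited of the family. It had 1079, 1025 and 862 edited reads in the RBFOX2-INSCRIBE libraries, 715, 870 and 803 in enzyme-only and 803, 623 and 634 in buffer-only libraries. In CPM it averaged 3676 ± 142 in RBFOX2-INSCRIBE, 3321 ± 307 in enzyme-only and 3886 ± 127 in buffer-only libraries, so the libraries without enzyme were the highest. The RBFOX2-INSCRIBE libraries lay between the other groups without overlap, above enzyme-only and below buffer-only. None of the differences passed the test, at log2 0.15 ± 0.09 for RBFOX2-INSCRIBE against enzyme-only (edgeR adjusted p = 0.569), -0.23 ± 0.09 for enzyme-only against buffer-only (adjusted p = 0.318) and -0.08 ± 0.09 for RBFOX2-INSCRIBE against buffer-only (adjusted p = 0.804).

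The receptor gene Erbb4 had 196, 210 and 159 edited reads in the RBFOX2-INSCRIBE libraries, 142, 151 and 129 in enzyme-only and 128, 85 and 98 in buffer-only libraries. It averaged 700 ± 59.1 CPM in RBFOX2-INSCRIBE, 586 ± 23.2 CPM in enzyme-only and 584 ± 54.7 CPM in buffer-only libraries. All RBFOX2-INSCRIBE libraries lay above the other 6, with log2 differences of 0.26 ± 0.13 against enzyme-only (edgeR adjusted p = 0.430) and 0.26 ± 0.14 against buffer-only (adjusted p = 0.451). Enzyme-only against buffer-only gave 0.00 ± 0.14 (adjusted p = 0.995).

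Of the 4 genes, 3 were higher in every RBFOX2-INSCRIBE than in every enzyme-only library, beside 8.76% of all genes tested, and 2 were higher than in every buffer-only library, beside 8.94%. None was higher in every enzyme-only than in every buffer-only library, beside 7.88% of all genes. In the other direction, Nrg1 and Nrg3 were lower in every enzyme-only than in every buffer-only library, beside 7.77% of all genes, and Nrg3 was also lower in every RBFOX2-INSCRIBE than in every buffer-only library, beside 7.72%. None of the 4 was lower in every RBFOX2-INSCRIBE than in every enzyme-only library, beside 7.55%. With TMM scaling the median log2 difference over all genes was between -0.02 and -0.01 in the 3 comparisons.

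**Figure D2:**
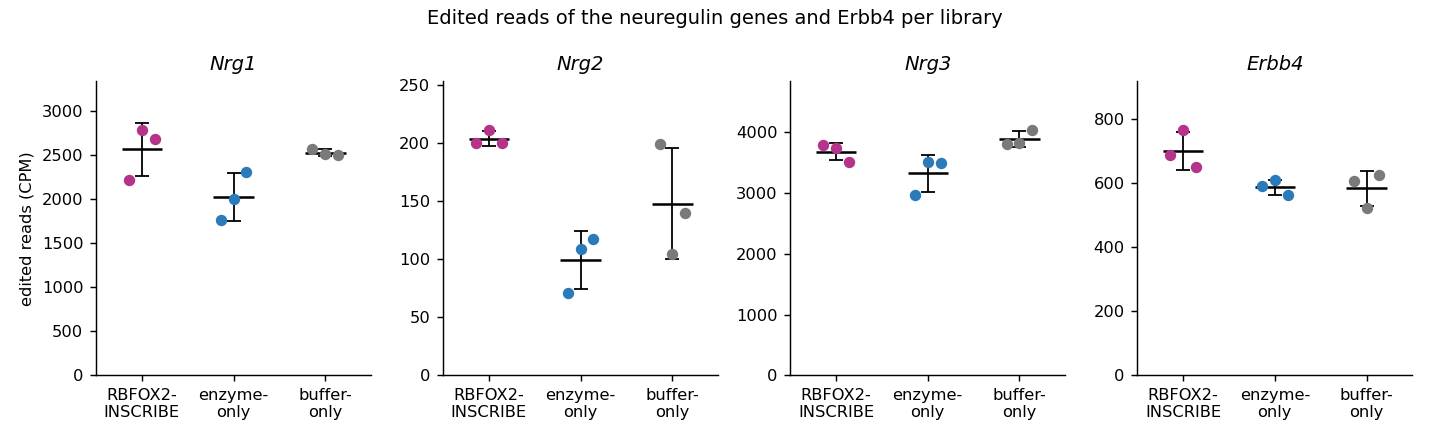
Edited reads (y, CPM, linear from 0) of Nrg1, Nrg2, Nrg3 and Erbb4 in the 3 RBFOX2-INSCRIBE, 3 enzyme-only and 3 buffer-only libraries (x). Points are libraries, bars the mean with its SD. Nrg2 lies at 199.8 to 211 CPM in RBFOX2-INSCRIBE and at 70.5 to 118 CPM in enzyme-only libraries, while Nrg3 is highest in the buffer-only libraries.

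Per unit of gene length the order of the genes was the same in all groups. Edited reads per 100 kb of gene were 333 CPM for Nrg3, 239 for Nrg1, 113 for Nrg2 and 65.1 for Erbb4 in RBFOX2-INSCRIBE libraries. They were 301, 189, 55.0 and 54.5 CPM in enzyme-only and 352, 236, 82.2 and 54.2 CPM in buffer-only libraries. Nrg2 and Erbb4 were close neighbours in the enzyme-only group, where the spread of Nrg2 over libraries exceeds their difference. Since the RNA level of each gene is unknown, the order is one of edited reads and not of the rate of editing.

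The edits were also split by where in the RNA they lay. Nrg1, Nrg2 and Nrg3 carried few exonic edits, with group means of 1.42% to 6.17% of their edited reads in exons. In Erbb4 the exonic share was 20.9%, 15.7% and 14.5% in RBFOX2-INSCRIBE, 36.1%, 26.4% and 38.5% in enzyme-only and 7.97%, 15.4% and 20% in buffer-only libraries. The enzyme-only libraries thus lay above all others. No exonic share over all genes is given beside these values, and whether this order is particular to Erbb4 was not tested. The means were 17.01% ± 3.404 in RBFOX2-INSCRIBE, 33.7% ± 6.41 in enzyme-only and 14.5% ± 6.07 in buffer-only libraries (SD, n = 3 each), with an exact two-sided permutation p of 0.1 for each of RBFOX2-INSCRIBE against enzyme-only and enzyme-only against buffer-only. That is the smallest p that 3 against 3 libraries can give. For RBFOX2-INSCRIBE against buffer-only the exact permutation p was 0.6. Over the 12 comparisons of exonic share in the 4 genes the smallest adjusted p was 0.4.

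Most of the exonic edits of Erbb4 fell in its long 3′ UTR. Edited reads there, sites shared with another gene included, numbered 33, 20 and 17 in RBFOX2-INSCRIBE, 39, 30 and 35 in enzyme-only and 6, 9 and 9 in buffer-only libraries. In these unscaled counts both groups with enzyme lay above the buffer-only group in every library. In coding exons there were 10, 12 and 5 edited reads in the RBFOX2-INSCRIBE libraries, 17, 9 and 14 in enzyme-only and 5, 5 and 12 in buffer-only libraries.

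Exonic and intronic edited reads were then fitted as separate features of all genes, a split chosen after seeing the data, with CPM on the scale of that fit. Exonic Erbb4 edits were at 256, 189 and 248 CPM in enzyme-only and at 59.7, 95.1 and 155 CPM in buffer-only libraries, and they rose by 1.19 ± 0.30 on the log2 scale (edgeR adjusted p = 0.0422). In RBFOX2-INSCRIBE libraries they were at 169, 145 and 108 CPM, a log2 difference of -0.71 ± 0.27 against enzyme-only (adjusted p = 0.188) and of 0.49 ± 0.32 against buffer-only (adjusted p = 0.619). Of 7259 features 0.813% were called in enzyme-only against buffer-only, 1.29% in RBFOX2-INSCRIBE against enzyme-only and 1.47% in RBFOX2-INSCRIBE against buffer-only. Left-out libraries moved the adjusted p of the exonic call between 0.0262 and 0.426, and it was lost without any 1 of the enzyme-only libraries or of buffer-only replicates 1 and 2. It was also lost with the offset of covering reads (adjusted p = 0.112).

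Intronic Erbb4 edits showed another order of groups. They were at 601, 725 and 606 CPM in RBFOX2-INSCRIBE, 393, 490 and 368 CPM in enzyme-only and 635, 483 and 536 CPM in buffer-only libraries. RBFOX2-INSCRIBE against enzyme-only gave 0.62 ± 0.17 on the log2 scale (edgeR adjusted p = 0.0408). RBFOX2-INSCRIBE against buffer-only gave 0.22 ± 0.17 (adjusted p = 0.707) and enzyme-only against buffer-only -0.41 ± 0.17 (adjusted p = 0.301). The call held without RBFOX2-INSCRIBE replicate 3 (adjusted p = 0.0408) and was lost without any other library of the 2 groups (adjusted p 0.0581 to 0.235), with a block for the replicate number (adjusted p = 0.0567) and with the offset of covering reads (log2 difference 0.26, adjusted p = 0.614). Intronic sites of Erbb4 had on average 13.2, 15.3 and 10.2 covering reads in the RBFOX2-INSCRIBE libraries, 10.01, 9.86 and 9.72 in enzyme-only and 12.97, 11.3 and 11.3 in buffer-only libraries. The enzyme-only libraries thus had both the lowest mean intronic cover and the lowest mean of intronic edits. Beyond the fit with the offset, the part of cover was not tested.

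**Figure D3:**
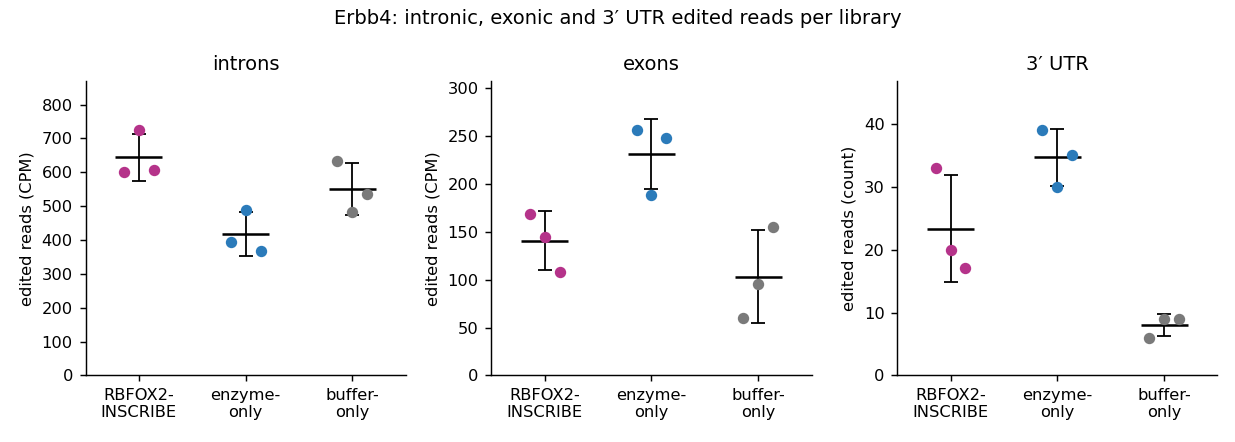
Edited reads of Erbb4 in introns and in exons (y, CPM on the scale of the exon and intron fit) and in the 3′ UTR (y, count), for the 3 RBFOX2-INSCRIBE, enzyme-only and buffer-only libraries (x). Points are libraries, bars the mean with its SD, and each y axis starts at 0. Exonic edits are highest in the enzyme-only libraries (189 to 256 CPM), intronic edits lowest there (368 to 490 CPM).

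Of the ligands, intronic Nrg2 edits passed the same test for RBFOX2-INSCRIBE against enzyme-only, with a log2 difference of 1.09 ± 0.27 (edgeR adjusted p = 0.0259). The call held without RBFOX2-INSCRIBE replicate 3 (adjusted p = 0.0189). It was lost without any other library of the 2 groups and with the offset (adjusted p 0.0591 to 0.298). Intronic edits of Nrg1 differed by 0.38 ± 0.11 (adjusted p = 0.0756) and those of Nrg3 by 0.17 ± 0.10 (adjusted p = 0.428). No exonic or intronic part of the 4 genes was called in RBFOX2-INSCRIBE against buffer-only.

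Along the genes, edits were denser toward the 5′ end. Each gene was cut into 10 equal bins from its 5′ end. In Erbb4 bin 1 held 37.9% of its edited reads in RBFOX2-INSCRIBE, 35.5% in enzyme-only and 41.6% in buffer-only libraries. Bin 10, with the 3′ UTR, held 14.3%, 26.7% and 11.5% in the same groups. In Nrg3 bin 1 held 19.0% in RBFOX2-INSCRIBE, 22.3% in enzyme-only and 21.5% in buffer-only libraries. A minimum of 4.89%, 4.26% and 4.79% in bin 4 lay before a second maximum in bin 6, which held 12.9%, 13.1% and 12.4%. Nrg1 held 16.0%, 16.0% and 17.9% in bin 3 and 0.490%, 0.464% and 0.270% in bin 9.

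Covering reads per filtered site varied along the genes too. In Nrg3 the mean cover in RBFOX2-INSCRIBE libraries was 38.8 reads in bin 1, 11.8 in bin 4 and 24.0 in bin 6, so it was high where the share was high. In Erbb4 bin 8 had a mean of 33.8 covering reads at 3.62% of the edited reads, so cover and share went apart there. That mean rests on 5, 5 and 6 sites in RBFOX2-INSCRIBE replicates 1, 2 and 3, with 27.4, 54.2 and 19.7 covering reads on average. The part of cover in the profiles was not tested.

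**Figure D4:**
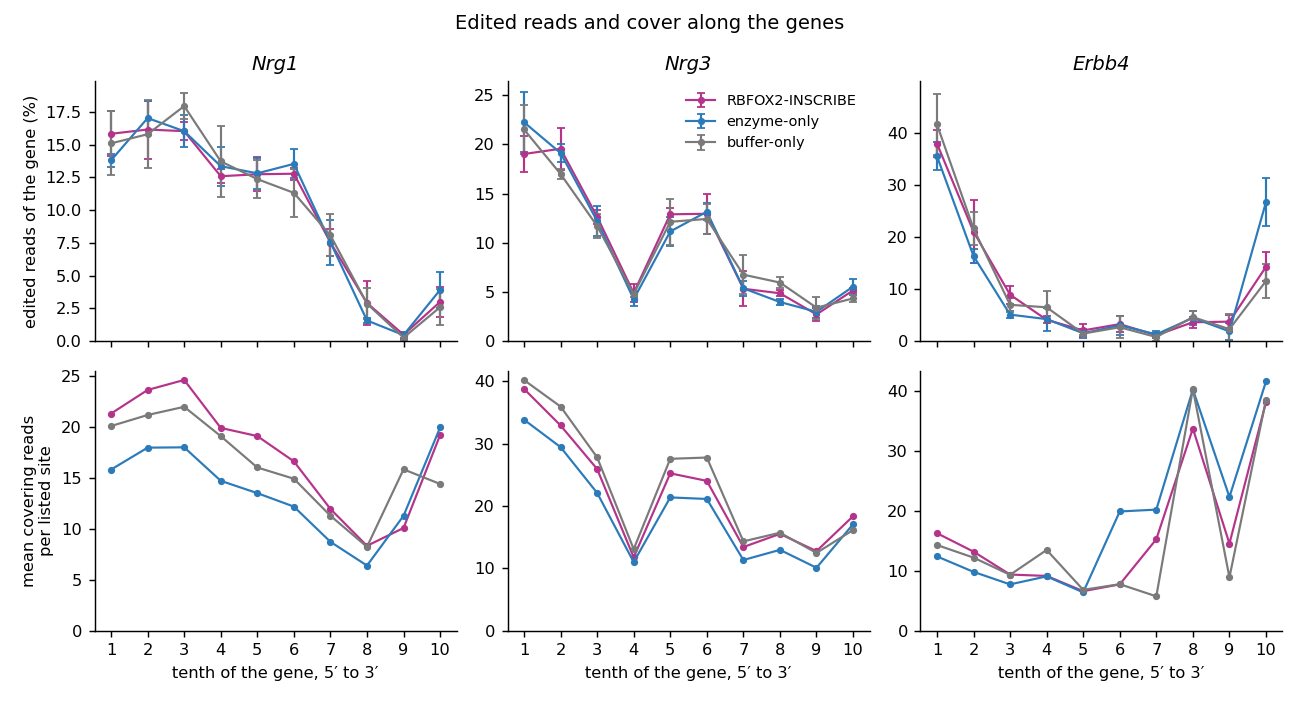
Share of a gene's edited reads (top, percent, mean with SD over 3 libraries) and mean covering reads per listed site that passed the filter (bottom, reads) by bin of 10 equal bins of the gene from the 5′ end (x), for Nrg1, Nrg3 and Erbb4. Lines are RBFOX2-INSCRIBE, enzyme-only and buffer-only. Shares are high in the 5′ bins in every group, and in bin 10 of Erbb4 the enzyme-only share (26.7%) is above the others.

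Nearness of edits to UGCAUG was not used to choose the genes, but the windows of 20, 50 and 100 nt were chosen after values were seen. For Nrg3, RBFOX2-INSCRIBE and enzyme-only libraries were apart at 100 nt and overlapped at 20 and 50 nt. In Nrg3, sites within 100 nt of UGCAUG made up 13.2%, 11.8% and 12.7% of edited sites in RBFOX2-INSCRIBE, 7.70%, 10.1% and 10.04% in enzyme-only and 9.27%, 8.16% and 7.33% in buffer-only libraries. The RBFOX2-INSCRIBE libraries lay above all others, at a mean of 12.6% ± 0.702 against 9.28% ± 1.36 in enzyme-only and 8.25% ± 0.976 in buffer-only libraries (SD, n = 3 each). Of all cytidines of Nrg3, 7.69% lie that near to UGCAUG. Over all genes the means were 10.1% in RBFOX2-INSCRIBE, 7.30% in enzyme-only and 7.12% in buffer-only libraries, in the same order of groups.

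Close to the motif the order of the groups in Nrg1 was that of all genes. Within 20 nt of UGCAUG lay 3.26%, 3.15% and 2.60% of its edited sites in RBFOX2-INSCRIBE, 1.53%, 2.41% and 0.821% in enzyme-only and 1.38%, 1.63% and 1.096% in buffer-only libraries, beside 1.68% of all its cytidines. RBFOX2-INSCRIBE was the highest without overlap. So it was over all genes, with 20-nt means of 2.87% in RBFOX2-INSCRIBE, 1.69% in enzyme-only and 1.63% in buffer-only libraries. For Nrg3 the 20-nt means were 4.14% ± 1.203 in RBFOX2-INSCRIBE, 2.36% ± 0.727 in enzyme-only and 2.13% ± 0.572 in buffer-only libraries, with overlap. For Erbb4 they were 3.71% ± 0.454, 4.11% ± 3.32 and 1.83% ± 0.605 in the same groups, so RBFOX2-INSCRIBE stood above buffer-only and not above enzyme-only libraries.

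Exact two-sided permutation p-values were taken for windows of 20, 50 and 100 nt. Between RBFOX2-INSCRIBE and enzyme-only libraries the exact p was 0.1 for Nrg1 in all 3 windows. For Nrg3 it was 0.1 at 100 nt, and 0.2 at 20 and at 50 nt, where the groups overlapped. For Erbb4 the exact p was 1, 0.7 and 0.6 at 20, 50 and 100 nt, and its 50-nt mean was lower in RBFOX2-INSCRIBE (6.32%) than in enzyme-only libraries (7.60%). Between RBFOX2-INSCRIBE and buffer-only libraries the exact p was 0.1 except for Nrg1 at 50 nt and Nrg3 at 20 nt, where it was 0.2 and the groups overlapped. Between enzyme-only and buffer-only libraries the groups overlapped for each of the 3 genes in each window (exact p 0.2 to 0.8). Over the 27 comparisons made (3 genes, 3 windows and 3 pairs of groups), the smallest adjusted p was 0.245, and the design cannot go below 0.1 for any of them. Nrg2 had 3 sites in RBFOX2-INSCRIBE, 0 in enzyme-only and 2 in buffer-only libraries within 20 nt of UGCAUG, too few for a share.

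**Figure D5:**
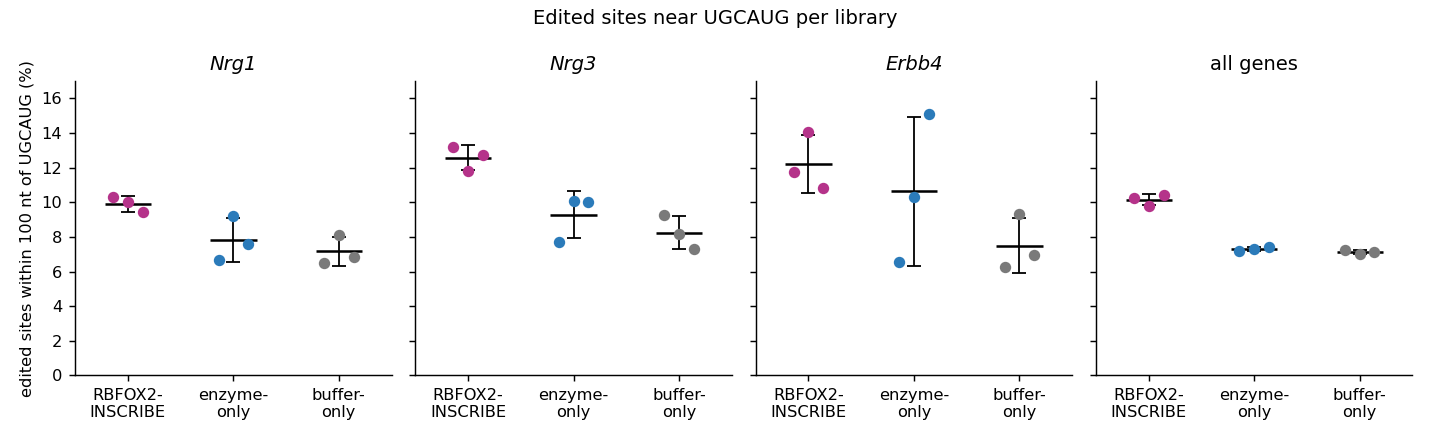
Percent of edited sites within 100 nt of UGCAUG (y, from 0) in the RBFOX2-INSCRIBE, enzyme-only and buffer-only libraries (x), for Nrg1, Nrg3, Erbb4 and all genes. Points are libraries, bars the mean with its SD. In Nrg3 the RBFOX2-INSCRIBE libraries sit between 11.8% and 13.2%, above all others, and over all genes between 9.78% and 10.4%. The window was chosen after values were seen.

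At the level of clusters, 94.3% to 97.4% of the clusters of the 4 genes were intronic in each library, and 80.6% to 86.8% rested on 1 edited read. UGCAUG was inside 52, 43 and 42 of them in RBFOX2-INSCRIBE, 20, 29 and 22 in enzyme-only and 27, 22 and 13 in buffer-only libraries. Those are 3.04% ± 0.348, 2.01% ± 0.294 and 1.87% ± 0.503 of the clusters in these groups (SD, n = 3 each), beside 2.54% ± 0.109, 1.60% ± 0.0314 and 1.504% ± 0.0426 over all clusters of the libraries. Among clusters with at least 2 edited reads, a limit chosen after seeing the data, the shares for the 4 genes were 5.74% ± 0.840 in RBFOX2-INSCRIBE, 1.42% ± 1.23 in enzyme-only and 2.00% ± 1.13 in buffer-only libraries. Over all clusters of that kind they were 4.05%, 1.97% and 1.74%. By gene, the share of clusters with UGCAUG in Nrg3 was 3.41% ± 0.972 in RBFOX2-INSCRIBE, 2.20% ± 0.463 in enzyme-only and 2.19% ± 0.598 in buffer-only libraries. It was 2.41% ± 0.267, 1.53% ± 0.546 and 1.37% ± 0.565 in Nrg1 and 3.65% ± 1.26, 3.06% ± 1.64 and 1.5003% ± 1.31 in Erbb4, in the same order of groups. In Nrg2 it was 2.37% ± 2.17 in RBFOX2-INSCRIBE, 0% in enzyme-only and 4.76% ± 8.25 in buffer-only libraries, at 14 to 50 clusters a library. No test was made of these shares.

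The confident lists held 35 clusters of the 4 genes in RBFOX2-INSCRIBE (0.676% of 5177), 21 in enzyme-only (0.462% of 4542) and 6 in buffer-only (0.287% of 2092). Of the RBFOX2-INSCRIBE clusters 21 were in Nrg3, 12 in Nrg1, 2 in Erbb4 and none in Nrg2, and all 35 were intronic. The enzyme-only list held 7 clusters of Nrg1, 6 of Nrg3, 1 of Nrg2 and 7 of Erbb4, and all 7 of Erbb4 lay in the 3′ UTR. The buffer-only list held 3 each of Nrg1 and Nrg3. UGCAUG was in 4 of the 35 clusters of RBFOX2-INSCRIBE, 0 of 21 of enzyme-only and 0 of 6 of buffer-only, beside 8.09%, 1.96% and 1.099% of all clusters of these lists. None of the 35 RBFOX2-INSCRIBE clusters overlapped a confident cluster of enzyme-only or of buffer-only, while of all clusters of the RBFOX2-INSCRIBE list 319 (6.16%) overlapped one of enzyme-only and 226 (4.37%) one of buffer-only. Background removal by the authors left all 35 and all 21 in their lists, and 5031 of 5177 and 4401 of 4542 clusters over all genes.

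The reads behind these clusters were few. The 35 clusters held 1 to 13 filtered edited reads of the RBFOX2-INSCRIBE libraries, with a median of 3. In total these were 35, 35 and 56 edited reads in the RBFOX2-INSCRIBE libraries, 3, 2 and 2 in enzyme-only and 6, 1 and 3 in buffer-only libraries. Edited reads came from all 3 RBFOX2-INSCRIBE libraries in 16 clusters, from 2 in 17 and from 1 in 2. All 35 have the coordinates of a cluster of replicate 3, and the list keeps only clusters that overlap between the 3 RBFOX2-INSCRIBE replicates. Reads of all 3 replicates inside them were thus partly fixed by how the list was made, those of replicate 3 most directly. The difference from the other libraries is therefore a description. In the other 6 libraries, 22 of the 35 held no edited read, and so did 15 of the 21 enzyme-only clusters in the libraries outside their group. A confident cluster without reads elsewhere is thus common to both lists.

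For each gene the confident cluster with the most edited reads in its own group was taken over the 3 lists, and outside Nrg3 none of these came from the RBFOX2-INSCRIBE list. For Erbb4 it was the enzyme-only cluster of 135 nt in the 3′ UTR at chr1:68035142-68035276, with 0, 0 and 1 edited reads in the RBFOX2-INSCRIBE libraries, 1, 3 and 4 in enzyme-only and 0, 0 and 1 in buffer-only libraries. For Nrg2 it was an intronic enzyme-only cluster at chr18:36180313-36180357, with 1 edited read in each enzyme-only library and none elsewhere. For Nrg1 it was an intronic buffer-only cluster at chr8:32293979-32294023, with 9, 8 and 0 edited reads in the RBFOX2-INSCRIBE libraries, 7, 0 and 7 in enzyme-only and 6, 5 and 3 in buffer-only libraries. It holds the position chr8:32293994, which was listed as edited in 8 of the 9 libraries, those without enzyme included. There 9 of 20 and 8 of 19 covering reads were edited in RBFOX2-INSCRIBE replicates 1 and 2. In enzyme-only libraries these were 7 of 9, 4 of 5 (not under the fraction limit of 0.8) and 5 of 9 reads, and in buffer-only libraries 6 of 12, 5 of 16 and 3 of 6. The change at this position was thus also read without enzyme. Where it passed the filter, its reads are part of the Nrg1 counts above.

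Single cytidines recurred rarely. Of 6589 edited positions of Nrg3, 33 were edited in 2 of the 3 RBFOX2-INSCRIBE libraries, 17 in 2 enzyme-only and 19 in 2 buffer-only libraries. For Nrg1, with 4364 positions, these were 16, 8 and 5 positions in 2 or more libraries of a group, for Erbb4, with 1212, 2, 4 and 3, and for Nrg2, with 288, 2, 0 and 0. No position of the 4 genes passed the filter in all 3 RBFOX2-INSCRIBE libraries. Positions edited in 2 RBFOX2-INSCRIBE libraries and in none of the other 6 numbered 45, of which 29 were in Nrg3 and 13 in Nrg1. Of these 45, 7 (15.6%) lay within 20 nt and 13 (28.9%) within 100 nt of UGCAUG. Of the 29 positions that recurred in enzyme-only libraries 0 and 1 lay that near, and of the 27 recurring in buffer-only libraries none did. The RBFOX2-INSCRIBE libraries held more sites to recur, and the first set was also held to be absent elsewhere, so the counts are a description. Of the 2 recurring Nrg2 positions, the intronic chr18:36096868 lay 7 nt from UGCAUG and was edited in 1 of 10 and 2 of 5 reads of RBFOX2-INSCRIBE replicates 2 and 3.

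For the wider ErbB pathway, of 57 listed genes (other ErbB ligands and receptors, the proteases that shed neuregulins, adaptors, and the kinases of the RAS and PI3K arms) 40 had enough edited reads to be tested. In RBFOX2-INSCRIBE against enzyme-only 2 of the 40 rose (5%, beside 0.928% of all genes called) and none fell, with a median log2 difference of -0.03, against -0.01 over all genes. In enzyme-only against buffer-only none was called by edgeR (5 at an unadjusted p under 0.05, smallest adjusted p = 0.0544), beside 0.661% of all genes, with a median of 0.12 against -0.01 over all genes. In RBFOX2-INSCRIBE against buffer-only 2 rose (5%, beside 1.64% of all genes called) and none fell, with a median of 0.03 against -0.02. The list was put together with earlier results known, and no test of the list was made.

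Map2k1, the kinase MEK1 of the RAS arm, was called in both comparisons. It had 22, 44 and 63 edited reads in the RBFOX2-INSCRIBE libraries, 15, 13 and 14 in enzyme-only and 16, 10 and 7 in buffer-only libraries. It rose by 1.47 ± 0.32 on the log2 scale against enzyme-only (edgeR adjusted p = 0.00533) and by 1.39 ± 0.34 against buffer-only (adjusted p = 0.0127). RBFOX2-INSCRIBE replicate 3 was the highest library, and without it neither call held (log2 difference 1.02, adjusted p = 0.193 against enzyme-only, and 0.94, adjusted p = 0.299 against buffer-only). The first call was also lost without enzyme-only replicate 2 (adjusted p = 0.0551) and the second without buffer-only replicate 2 (adjusted p = 0.0605) or 3 (adjusted p = 0.0742). With the offset of covering reads the first call was lost (log2 difference 0.67, adjusted p = 0.551) and the direction of the difference from buffer-only turned (log2 -0.76). The second call was also lost with DESeq2 (adjusted p = 0.102), which gave no adjusted p for the first, and with the number of edited sites (0.93, adjusted p = 0.172). Wwox, which encodes a WW-domain protein that binds the cleaved intracellular part of ErbB4, had 40, 49 and 25 edited reads in the RBFOX2-INSCRIBE libraries, 8, 19 and 17 in enzyme-only and 40, 18 and 18 in buffer-only libraries. It rose by 1.197 ± 0.30 against enzyme-only (edgeR adjusted p = 0.0296). Buffer-only replicate 1, at 189.5 CPM, lay above the 3 RBFOX2-INSCRIBE libraries with 140.2, 178 and 102 CPM. Leaving out RBFOX2-INSCRIBE replicate 2 (adjusted p = 0.174) ended the call, as did leaving out enzyme-only replicate 1 (adjusted p = 0.280). Of the other ErbB receptors, Egfr, the receptor of EGF, had 99 edited reads over all 9 libraries and was tested but not called. Erbb2, the partner of neuregulin receptors, had 2 and Erbb3, which binds neuregulins, had 47, too few to be tested.

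The genes whose CPM pattern over the 9 libraries was most like that of each member were taken from the 289 to 290 genes whose edited reads averaged 100 or more per library. For Nrg1 they were Lrrc7, which encodes a postsynaptic density protein (Pearson r = 0.979), the adhesion gene Negr1 (0.959) and the calcium channel gene Cacna1a (0.927). For Nrg2 they included Grip1, a scaffold gene of AMPA receptors (0.949), and Zfp385b (0.928). For Nrg3 they were Spock1 (0.938) and the neuronal genes Dscam (0.930) and Nav2 (0.930). For Erbb4 they were the chromatin gene Arid1b (0.885), the glutamate receptor gene Grm5 (0.867) and the splicing regulator gene Mbnl2 (0.840). Between the members, r over the 9 libraries was 0.76 for Nrg1 with Nrg2, 0.73 for Nrg1 with Nrg3 and 0.61 for Nrg2 with Nrg3. With Erbb4 it was 0.70 for Nrg2, 0.32 for Nrg1 and 0.18 for Nrg3. These are descriptions over libraries that share depth and group, and no test was made of them.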

How the data were processed

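RNA sequencing of INSCRIBE-treated brain slices gave 9 libraries in 3 groups of 3. Adapters had been cut with cutadapt and reads mapping to repeats taken out before the authors aligned the rest to mm10 with STAR (2.5.2 for brain) and called C-to-U sites with SAILOR. The deposited site lists give a score between 0 and 1 and, as another value, a pair of edited and covering reads per site, and they hold only sites with at least 1 edited read and 5 covering reads. The authors called clusters with FLARE, and the deposited cluster lists of each library give counts of edited reads and of reads, the fraction edited, a score and, as a signal, the mean depth. Overlaps of the clusters of 3 replicates made up the authors' confident lists, whose deposited columns are a depth signal and other values that merge the windows' adjusted p. 0 columns of samples were left unused.

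As in the study's methods, a site was used where its score exceeded 0.5 and under 0.8 of its reads were edited. Sites were assigned by strand to GENCODE genes (GRCm38). All 12860 site calls in the 4 genes were at a C. Sites in more than 1 gene of a strand were left out of gene counts. These counts were tested across all genes with edgeR 4.0.16 (quasi-likelihood test, TMM, filterByExpr, 1 fit for all 9 libraries), and a gene was called at a Benjamini-Hochberg adjusted p under 0.05. Edited reads in genes numbered 178493 to 311942 per library. Shares of sites, exonic shares, 3′ UTR counts and profiles along a gene include all filtered sites of the gene. Shares were compared by exact two-sided permutation, which cannot go below p = 0.1 with 3 against 3 libraries. UGCAUG was searched on the transcribed strand, and sequences come from the RefSeq GRCm38 genome. The edgeR step was tested on simulated counts. Alternatives were DESeq2 1.42.0, RLE scaling, filters, site counts, an offset of covering reads, a replicate block and left-out libraries. The members, lists and naming rule were chosen with earlier results of these data known. Named were all 4 genes, pathway genes called in a comparison, the 3 genes most like each member, the RBFOX2-INSCRIBE confident clusters with UGCAUG and the confident cluster with the most edited reads of each gene. Of these, 1 called pathway gene and 1 of the most alike genes are not reported here. Recurrent positions, the window around the 120-nt cluster, the Erbb4 clusters of the RBFOX2-INSCRIBE list, the exon and intron fit and the windows of 20, 50 and 100 nt were chosen after values were seen. HEK293XT libraries of the series were not used here.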

Additional observations from a re-analysis of the deposited data

How the results depend on the processing

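The number of the 4 genes called in RBFOX2-INSCRIBE against enzyme-only was 1, and it was 2 with every listed site, 0 with the offset of covering reads per filtered site and 0 to 2 with a library left out (0 without enzyme-only replicate 1, and 2 when either RBFOX2-INSCRIBE replicate 1 or enzyme-only replicate 3 was left out). With sites of at least 20 covering reads and with DESeq2 the call was Nrg1 in place of Nrg2, which had too few reads to be tested at that cover and no adjusted p under DESeq2. In the other comparisons it was 0 under every setting run. Of the exonic and intronic parts, a split chosen after seeing the data, RBFOX2-INSCRIBE against enzyme-only called 2, against 0 with the offset, 1 with the replicate block and 0 to 2 with a library left out. DESeq2 also called 2, intronic Erbb4 (adjusted p = 0.0164) and intronic Nrg1 (adjusted p = 0.0235). Enzyme-only against buffer-only called 1, against 0 with the offset and 0 to 1 with a library left out, and under DESeq2 the call was intronic Nrg1 (log2 -0.37, adjusted p = 0.0244), while exonic Erbb4 had no adjusted p.

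Directions turned with the offset for Nrg1 in RBFOX2-INSCRIBE against enzyme-only (log2 -0.051, intronic -0.032) and against buffer-only (-0.11), for Nrg3 in enzyme-only against buffer-only (0.016) and RBFOX2-INSCRIBE against buffer-only (0.020), and for Map2k1 (-0.76) in RBFOX2-INSCRIBE against buffer-only. For Erbb4 in enzyme-only against buffer-only they turned with the offset (-0.32), every listed site (-0.0019), the number of edited sites (-0.033) and sites in more than 1 gene counted for each (-0.025), and left-out libraries gave -0.071 to 0.051. Left-out libraries gave -0.036 to 0.12 for Nrg1 in RBFOX2-INSCRIBE against buffer-only. The cause was not tested.

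The share of clusters with UGCAUG was 7.89% in RBFOX2-INSCRIBE, 6.49% in enzyme-only and 5.59% in buffer-only libraries with UGCAUG counted within 50 nt of a cluster, and 5.74%, 1.42% and 2.00% among clusters with at least 2 edited reads. With a library left out it was 2.89% to 3.23%, 1.84% to 2.10% and 1.67% to 2.15%.

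Of all genes, 59, 42 and 104 were called in RBFOX2-INSCRIBE against enzyme-only, enzyme-only against buffer-only and RBFOX2-INSCRIBE against buffer-only. These counts were 162, 131 and 315 with every listed site and 33, 15 and 27 with the offset, and left-out libraries gave 26 to 68, 11 to 35 and 40 to 140. The last was 46 with DESeq2 and 46 with the number of edited sites, and the second was 19 with the number of edited sites and 15 with at least 20 covering reads.

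Replicate numbers gave no sign of pairing, since deviations of same-numbered libraries correlated at -0.054 to 0.090 and those of other pairs at -0.13 to 0.12. With few edited reads in most genes this check cannot exclude pairing. A replicate block gave 65, 46 and 109 called genes and kept the call of Nrg2 (log2 1.04, adjusted p = 0.0136), while intronic Erbb4 (0.63, adjusted p = 0.0567) lost it. A stricter cluster threshold was not run, since no adjusted p stands in the cluster lists of the libraries. Depth limits single places, since 84.9% to 96.4% of the sites of a gene and library rest on 1 edited read.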
